A study of Mus musculus with 9 samples.

Results

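The genes described here make, import, move and break down cholesterol. They comprise 34 genes of the 33175 with at least 1 count in mouse hippocampus, chosen by name: 20 enzymes of cholesterol synthesis, 5 genes of the sterol sensor that controls them, 2 sterol-activated nuclear receptors, and 7 genes of uptake, transport, esterification and turnover. All 34 names were found in the deposited tables, and all 34 passed the filter on low counts that left 17396 genes to test. The mice were females of 9 months, and their hippocampal RNA gave 9 libraries in 3 groups of 3. 3xTg LP-10d mice carried APPSwe, tauP301L and a PS1 mutation and received the compound LP-10d by mouth at 10 mg/kg, 4 times a week for 1 month. 3xTg vehicle mice carried the same kinds of transgene and received blank solvent by mouth 4 times a week. WT vehicle mice were C57BL/6J and received the same solvent. The series title describes a modulation of 3 kinase targets, which the labels do not name.

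Several points limit these groups as a model. The PS1 mutation is labelled PS1M146V, PS1M147V and PS1M148V in the 3xTg vehicle libraries and PS1M149V, PS1M150V and PS1M151V in the 3xTg LP-10d libraries, so its name goes up by 1 from library to library and is given here only as labelled. In the 3xTg line the APP and tau transgenes are driven by a Thy1 promoter, which is active in neurons. WT and 3xTg mice differ in strain labels and in transgenes alike, and these cannot be told apart. Whether each library is 1 animal is not labelled, and p-values reflect the spread among these libraries alone.

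Neurons and glia make nearly all of the brain's cholesterol locally, because lipoproteins of the blood do not cross the blood-brain barrier. Acetyl-CoA is built through mevalonate into farnesyl groups, joined to squalene, closed into a sterol ring and trimmed to cholesterol. When sterol in the endoplasmic reticulum is low, SCAP carries the membrane-bound transcription factors SREBP to the Golgi, where they are cut and released to switch on these enzymes, and INSIG proteins hold SCAP back when sterol is plentiful. Excess cholesterol is esterified, exported to lipoproteins under control of the liver X receptors, or hydroxylated by CYP46A1, a neuronal enzyme whose product can leave the brain.

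RefSeq sequence (GRCm38.p6) of the 250 bases before the start site was held for 28 of the 34 genes, in 37 windows, and for 27025 genes in all. The 5 promoters below belong to genes among those with the smallest p-values in the comparisons that follow, and are shown for the short motifs of the SREBP system that they hold or lack. Each is written 5′ to 3′ on the strand of its gene and stops where an annotated transcript of the gene begins. Start sites are those of RefSeq, and the deposited gene starts of Hmgcs1 (119690379) and Cyp46a1 (108334381) lie farther on. In 29 of the 37 windows, bases just after the start lay in a GENCODE transcript of the gene. Capitals mark the sterol regulatory element TCACNCCAC, the E-box CACGTG and the NF-Y box CCAAT (or its reverse complement ATTGG).
Hmgcs1 (chr13:119690101-119690350, plus strand): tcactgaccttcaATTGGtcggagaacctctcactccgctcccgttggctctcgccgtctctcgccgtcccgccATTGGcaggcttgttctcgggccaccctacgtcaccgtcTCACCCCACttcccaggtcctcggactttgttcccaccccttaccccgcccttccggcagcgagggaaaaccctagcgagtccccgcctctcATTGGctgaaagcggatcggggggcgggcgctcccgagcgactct
Mvd (chr8:122443423-122443672, minus strand): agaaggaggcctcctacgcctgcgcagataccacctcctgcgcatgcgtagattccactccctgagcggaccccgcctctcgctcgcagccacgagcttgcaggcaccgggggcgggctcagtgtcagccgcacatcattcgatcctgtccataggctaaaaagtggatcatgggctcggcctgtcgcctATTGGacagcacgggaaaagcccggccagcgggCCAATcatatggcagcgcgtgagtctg
Acat2 (chr17:12960748-12960975, minus strand): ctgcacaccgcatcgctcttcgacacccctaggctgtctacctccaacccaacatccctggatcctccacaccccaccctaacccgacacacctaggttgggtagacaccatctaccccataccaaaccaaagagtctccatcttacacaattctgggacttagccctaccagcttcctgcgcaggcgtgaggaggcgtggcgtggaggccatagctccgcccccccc
Insig1 (chr5:28071162-28071362, plus strand): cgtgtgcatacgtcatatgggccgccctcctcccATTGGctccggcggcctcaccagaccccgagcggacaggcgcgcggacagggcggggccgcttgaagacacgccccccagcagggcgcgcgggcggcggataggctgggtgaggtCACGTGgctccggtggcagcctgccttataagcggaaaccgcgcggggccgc
Cyp46a1 (chr12:108334066-108334315, plus strand): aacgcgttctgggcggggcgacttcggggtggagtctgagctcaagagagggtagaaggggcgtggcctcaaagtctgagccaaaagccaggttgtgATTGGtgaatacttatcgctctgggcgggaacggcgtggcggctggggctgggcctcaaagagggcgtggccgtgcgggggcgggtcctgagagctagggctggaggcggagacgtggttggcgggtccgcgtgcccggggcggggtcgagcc

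The Hmgcs1 promoter held 1 sterol regulatory element, beginning 137 bases before the start site, between the second and the third of its 3 NF-Y boxes. It was the only one of the 28 genes with this element as spelled (3.57%), against 1.22% of all genes with a window. The Insig1 promoter held 1 E-box, a sequence bound by several factors of the SREBP and clock families, as did 5 of the 28 genes (Dhcr7, Hsd17b7, Insig1, Sc5d and Scap; 17.9%), against 6.86% of all genes. Of the motifs in capitals, Mvd and Cyp46a1 held only NF-Y boxes (2 and 1), and Acat2 held none. The NF-Y box, bound by a factor that works beside SREBP, occurred in 24 of the 28 genes (85.7%, against 37.5% of all genes). The Sp1 box GGGCGG occurred in 23 of 28 (82.1%, against 35.4%). An LXR element, the letters AGGTCA repeated after a spacer of 4 bases, was in none of the 28 and in 0.0148% of all genes. Both strands were searched and no matches overlapped in the 5 promoters shown. The windows of these genes had a median GC content of 62.8%, against 52.4% for all windows, and the motif shares were not compared at equal GC content. A match describes letters in the window and was not tested as a binding site.

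On the scale that allows genes to be compared, fragments scaled to gene length and depth (FPKM, deposited by the authors), the hippocampus held 17 of the 34 genes above 10 FPKM and 16 between 1 and 10 FPKM. Cyp46a1, which hydroxylates cholesterol for export from the brain, stood highest at a mean of 66.4 FPKM over the 9 libraries. Srebf2, which encodes the SREBP that drives the synthesis enzymes, followed at 54.7 FPKM. Next came Hmgcs1 (26 FPKM), the enzyme that makes HMG-CoA, Insig1 (23.1 FPKM), Fdft1 (22 FPKM), which makes squalene, and Srebf1 (21.3 FPKM), whose product favours fatty acid genes. The lowest were Lbr (2.54 FPKM), a sterol reductase of the nuclear envelope, Nr1h3 (2.02 FPKM), which encodes LXRα, and Fdps (0.254 FPKM). The receptor LXRβ, encoded by Nr1h2, stood at 20.4 FPKM, so the 2 receptors differed widely in level in every library.

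**Figure D1:**
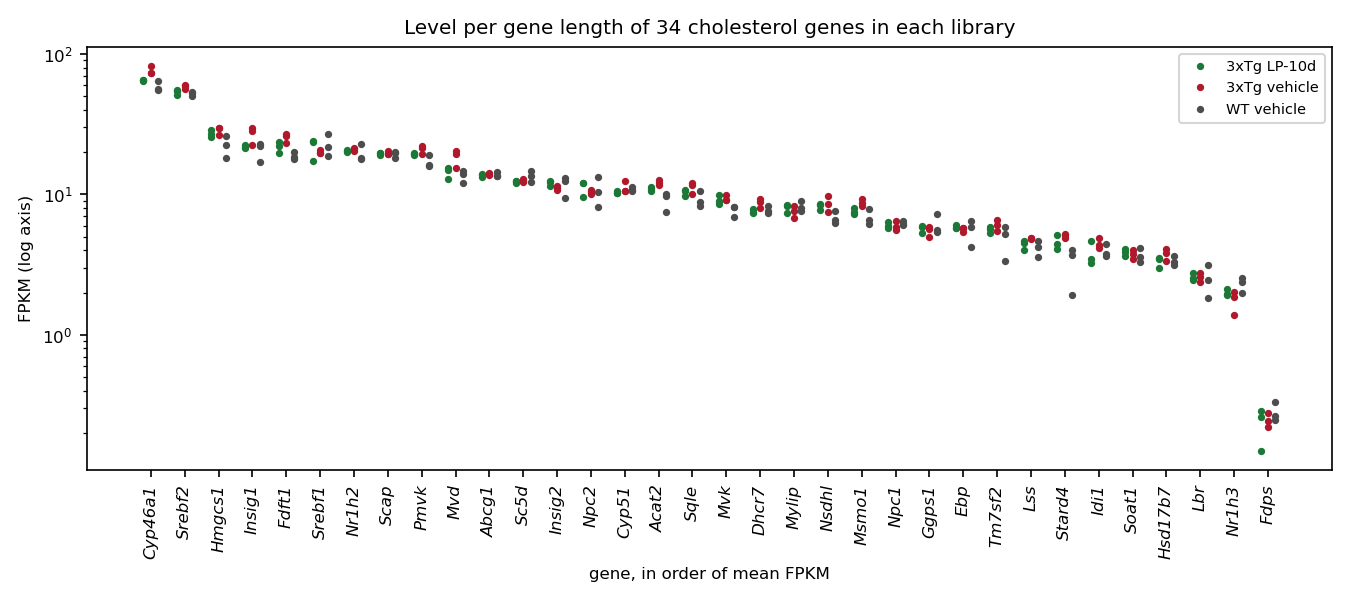
Deposited FPKM (vertical, log axis) of the 34 genes (horizontal, in order of mean FPKM), with 1 point per library and 3 points per group, 3xTg LP-10d left, 3xTg vehicle in the middle and WT vehicle right. Cyp46a1 (66.4 FPKM) and Srebf2 (54.7 FPKM) lie highest and Fdps (0.254 FPKM) lowest.

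The level of Fdps, the enzyme that makes farnesyl groups, is uncertain. Only 11 to 26 counts fell on it per library, and its annotated exons share 1124 bases with Gm43738 on the same strand. Its transcript is also close to processed pseudogenes, among them Gm3571 (98.9% identical over 1062 bases, up to 66 counts). A similar limit touches Acat2, 97.7% identical to Acat3 over 1477 bases, and Idi1, which matches the pseudogene Gm13502 at 100% over 684 bases. Acat2 also matches Tcp1 at 98.7% over 445 bases, a gene with up to 1990 counts. Fdft1 shares 774 exon bases (18.3% of its own) with Ctsb on the opposite strand. Tm7sf2, a sterol reductase, shares 532 bases with Vps51 on the same strand. Whether counting used strand is not given in the sources used here.

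Within a group, most of these genes varied little between libraries. The coefficient of variation, pooled within groups on counts scaled to depth by TMM (CPM), had a median of 9.09% over the 34 genes. It was lowest for Abcg1, a sterol exporter, at 2.02%, and highest for Stard4, a carrier of sterol between membranes, at 20.8%. The highest library exceeded the lowest by a median factor of 1.46 per gene.

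Facts of the libraries bear on what follows. Total counts ran from 16582086 to 19170969 per library, and mitochondrial genes took 2.28% to 2.86% of counts except in WT vehicle replicate 3, with 5.04%. Markers of hippocampal neurons (8 genes, among them Prox1 and Fibcd1) were present in every library, at a summed 628 to 1204 CPM. In 3xTg vehicle replicate 2 they were lowest (628 CPM), and the 10 markers of striatum and thalamus summed to 1325 CPM, against 135 to 334 CPM in the other 8 libraries. All 10 lay above their mean over the 9 libraries there. The next highest sum was in WT vehicle replicate 3 (334 CPM), with 4 of the 10 above their mean. In WT vehicle replicate 1 (235 CPM) 7 of the 10 lay above it. Among these markers, Prkcd, Tcf7l2 and Ramp3 spread widely in WT vehicle libraries (92.9 ± 58.2, 22 ± 28 and 12.5 ± 13.1 CPM, SD, n = 3). Choroid plexus markers (9 genes) summed to 44.6 to 4461 CPM over the 9 libraries. 3xTg vehicle replicate 2 and WT vehicle replicate 3 thus stand apart, and the counts, the medians and the fold changes that they move most are also given without them. These are bulk samples, in which fewer cells of a type and less RNA per cell cannot be told apart.

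Treatment with LP-10d was compared with vehicle in 3xTg mice. None of the 34 genes passed edgeR's quasi-likelihood test (Benjamini-Hochberg adjusted p = 1 for each), nor did any of the 17396 genes tested (0%). At an unadjusted p under 0.05, edgeR counted 504 of all genes (2.9%). DESeq2 called 1 gene at an adjusted p under 0.05, outside this set, and at an unadjusted p under 0.05 it had 3 of the 34 lower (against 1.76% of all genes) and 0 higher (against 0.69%). Among the 34 genes, 10 had a log2 fold change above 0 and 24 below it, where 49.9% and 50.1% of all genes did. The median was -0.09, against 0.00 over all genes tested. Of the 20 synthesis enzymes, 17 lay below 0, with a median of -0.11, while the other 14 genes divided evenly, 7 above and 7 below. An unadjusted p under 0.05 and a negative fold change were found for 3 of the 34 genes (8.82%), against 1.95% of all genes: Mvd, Insig1 and Cyp46a1. With a positive fold change it was 0 of 34, against 0.948% of all genes. The treated and vehicle libraries did not overlap, with treated libraries lower, for 7 of 34 (20.6%, against 5.81% of all genes), and with treated libraries higher for 0 of 34 (against 5.82%).

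The 3xTg vehicle mice were compared with WT vehicle mice. Again none of the 34 genes passed (smallest adjusted p = 0.186, for Fdft1), and edgeR called 1 gene in all (0.00575%). DESeq2 called 352 genes (2.24%), 1.53% higher and 0.714% lower in 3xTg vehicle, and among the 34 it called 1, Fdft1 (adjusted p = 0.0482). Log2 fold changes were above 0 for 21 genes and below 0 for 13, with a median of 0.12, where 50.2% and 49.8% of all genes lay above and below. Of the 20 enzymes 16 lay above 0, with a median of 0.21, and of the other 14 genes 5 did, with a median of -0.02. An unadjusted p under 0.05 with a positive fold change was found for 10 of 34 (29.4%, against 7% of all genes), and with a negative one for 1 of 34, Nr1h3 (2.94%, against 7.08%). Groups did not overlap, with 3xTg vehicle higher, for 10 of 34 (29.4%, against 9.38%), and with 3xTg vehicle lower for 1 (2.94%, against 7.99%).

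Treated 3xTg mice were also set beside WT vehicle mice. None of the 34 genes passed edgeR's adjusted threshold (smallest adjusted p = 0.571, for Stard4), and none had an unadjusted p under 0.05 (against 4.08% of all genes higher and 4.67% lower). In all, edgeR called 0 genes, with 1523 at an unadjusted p under 0.05 (8.75%), and DESeq2 called 46 (0.265%). Log2 fold changes were above 0 for 20 and below 0 for 14, with a median of 0.03. This order rested on WT vehicle replicate 3: without it, 15 lay above 0 and 19 below, with a median of -0.01, and the numbers were the same without 3xTg vehicle replicate 2 as well. Groups did not overlap for Mvk and Pmvk, with treated libraries higher (5.88%, against 7.49% of all genes), and for Abcg1, with treated libraries lower (2.94%, against 6.89%). These 3 comparisons share libraries in pairs: the 3xTg vehicle libraries enter the first and the second with opposite sign, so the values of both are given side by side and neither supports the other.

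**Figure D2:**
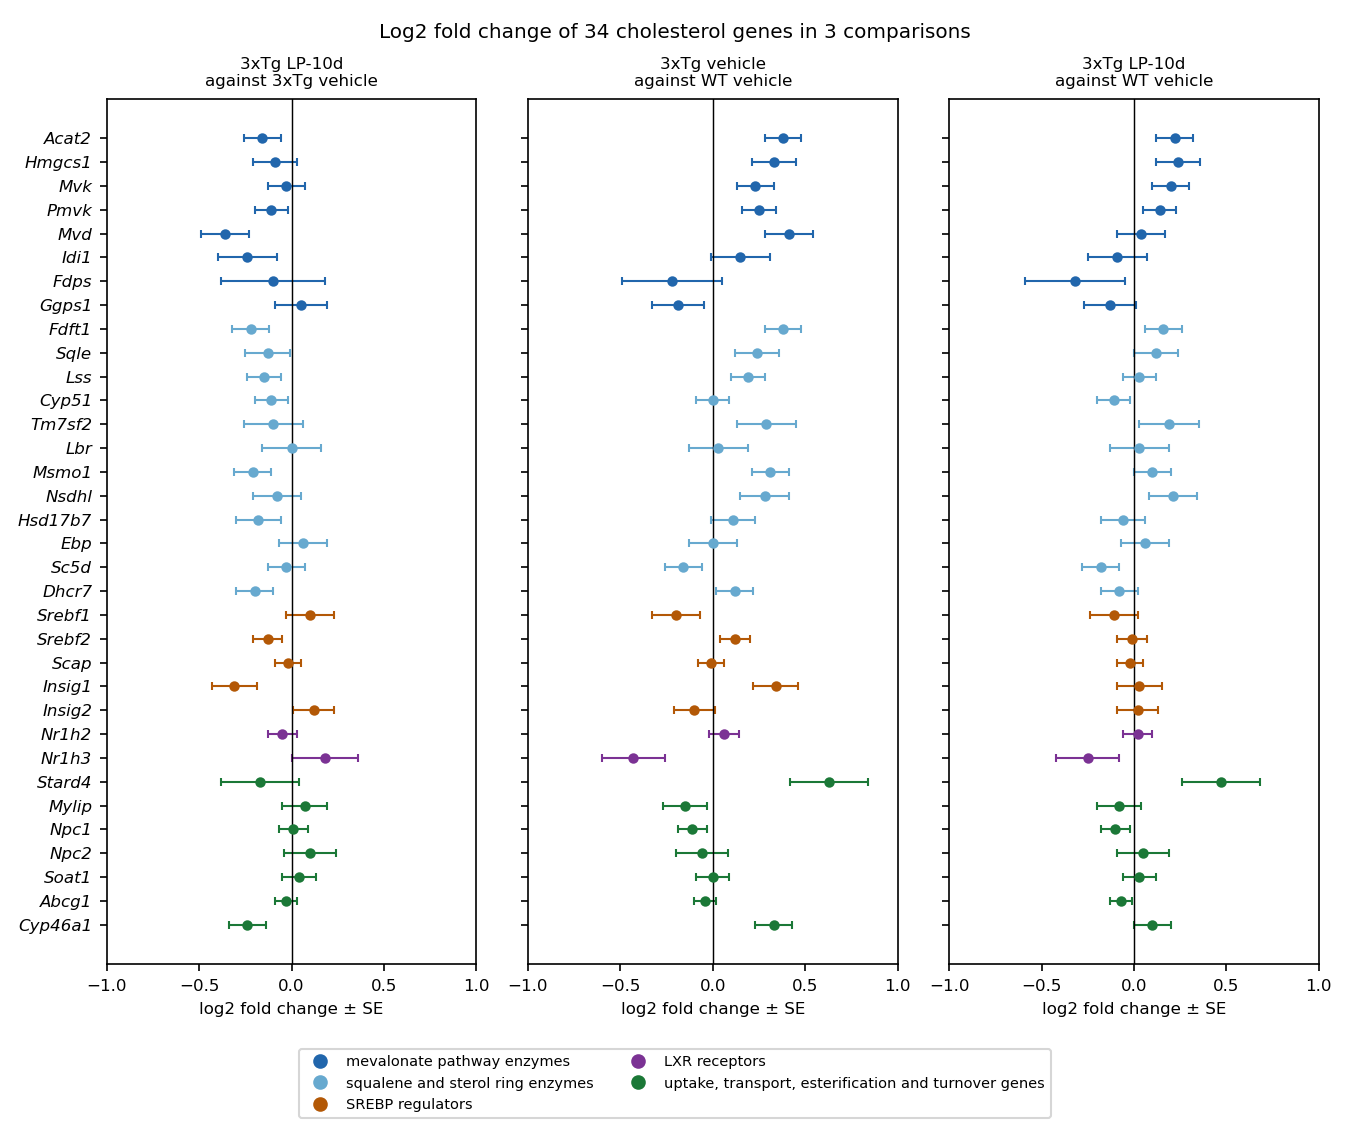
Log2 fold change (horizontal) with its standard error (bars) for the 34 genes (vertical, by role and colour) in 3 comparisons, fitted by edgeR over all 9 libraries. In the left panel 24 points lie below 0, in the middle panel 21 lie above 0, and in the right panel 20 lie above 0, and none of the 34 genes passed the adjusted threshold in any panel.

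The first enzymes of the pathway lead to mevalonate and its phosphates. Acat2 had 28.3, 26.3 and 27.7 CPM in 3xTg LP-10d, 32, 30.4 and 29.6 CPM in 3xTg vehicle and 26.4, 23.9 and 20.5 CPM in WT vehicle libraries. Acat2, a thiolase that joins acetyl-CoA units, was higher in each 3xTg vehicle library than in any other library, and lowest in WT vehicle replicate 3. Its log2 fold change was -0.16 ± 0.10 (SE) for LP-10d against vehicle and 0.38 ± 0.10 for 3xTg vehicle against WT (adjusted p = 0.197, edgeR). Acat3, its near-identical neighbour, averaged 4.15 ± 0.487, 4.31 ± 0.84 and 3.24 ± 0.446 CPM (SD, n = 3 each) in 3xTg LP-10d, 3xTg vehicle and WT vehicle libraries. Tcp1, which also shares sequence with Acat2, had a log2 fold change of 0.04 ± 0.07 (SE) for 3xTg vehicle against WT. Hmgcs1 had 130, 116 and 123 CPM in 3xTg LP-10d, 137, 121 and 135 CPM in 3xTg vehicle and 123, 100 and 88.7 CPM in WT vehicle libraries. Only the 2 lower WT vehicle libraries lay apart from the rest, and WT vehicle replicate 1 reached into both 3xTg groups. The log2 fold change of Hmgcs1 was 0.33 ± 0.12 for 3xTg vehicle against WT (adjusted p = 0.279, edgeR), and 0.24 ± 0.12 for LP-10d against WT (adjusted p = 0.586).

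Kinases and a decarboxylase follow. Mvd had 23.5, 28.2 and 27.7 CPM in 3xTg LP-10d, 37.9, 28.4 and 35.8 CPM in 3xTg vehicle and 28.2, 25.2 and 23.8 CPM in WT vehicle libraries. Mvd, which converts mevalonate diphosphate to the isoprene unit, was high in 3xTg vehicle replicates 1 and 3, while the remaining 7 libraries lay between 23.5 and 28.4 CPM. Its 3xTg vehicle and LP-10d libraries did not overlap, but by a gap of only 28.4 against 28.2 CPM, and replicate 2 supplied the lower edge. The log2 fold change was -0.36 ± 0.13 for LP-10d against vehicle and 0.41 ± 0.13 for 3xTg vehicle against WT (adjusted p = 0.24). Mvk had 26.2, 22.4 and 24.2 CPM in 3xTg LP-10d, 26.4, 24 and 24.1 CPM in 3xTg vehicle and 22.3, 21.3 and 19.8 CPM in WT vehicle libraries. Mvk, mevalonate kinase, was higher in every 3xTg library, treated or not, than in any WT library. Pmvk had 32.3, 32.6 and 33.6 CPM in 3xTg LP-10d, 36.4, 32.7 and 37.6 CPM in 3xTg vehicle and 28.6, 31.8 and 29.2 CPM in WT vehicle libraries. Pmvk, which adds the second phosphate, followed the same order, with the WT libraries lowest and the 2 highest values in 3xTg vehicle replicates 1 and 3. For 3xTg vehicle against WT the log2 fold changes were 0.23 ± 0.10 for Mvk (adjusted p = 0.331, edgeR) and 0.25 ± 0.09 for Pmvk (adjusted p = 0.267). For LP-10d against vehicle they were -0.03 ± 0.10 and -0.11 ± 0.09, in the same order.

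The last mevalonate genes showed no such order. Idi1, which interconverts the isoprene units, ran from 11.3 to 17.1 CPM, and its groups overlapped in all 3 comparisons. Ggps1, which diverts farnesyl groups to protein prenylation, ran from 23.5 to 36.3 CPM, with its highest value in WT vehicle replicate 3. Fdps ran from 0.621 to 1.36 CPM. Of the 8 mevalonate genes, 7 had a negative log2 fold change for LP-10d against vehicle (median -0.11) and 6 a positive one for 3xTg vehicle against WT (median 0.24).

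**Figure D3:**
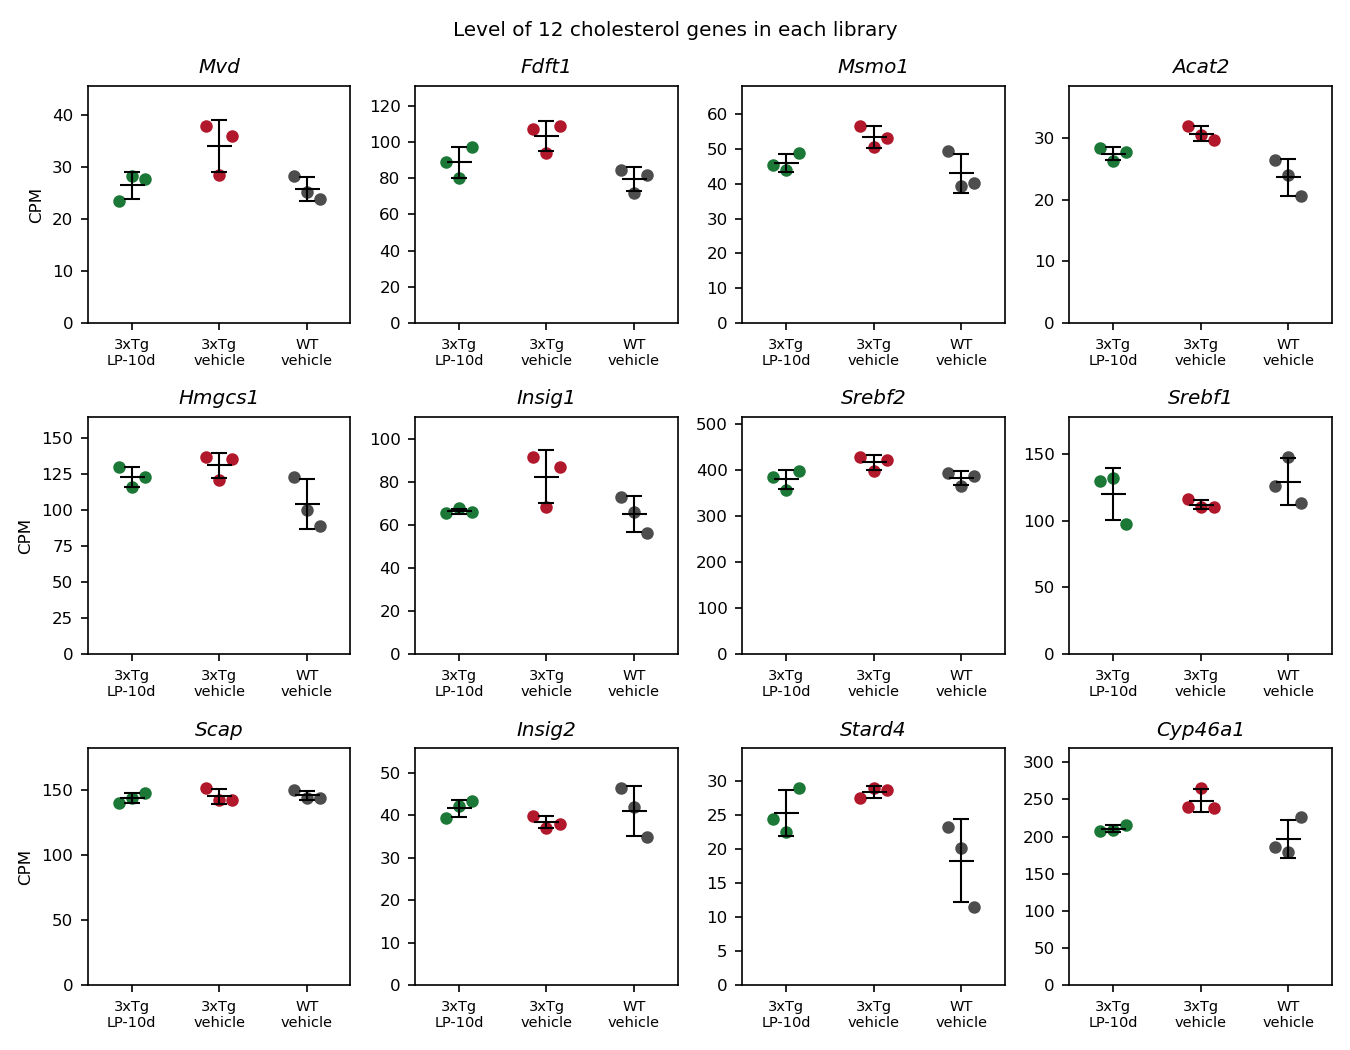
CPM (vertical, each panel from 0) of 12 genes, with 1 point per library in order of replicate and the mean ± SD of 3 libraries per group in black. Mvd, Fdft1 and Insig1 are high in 3xTg vehicle replicates 1 and 3, Cyp46a1 and Acat2 are higher in each 3xTg vehicle library than in the others, and Scap is nearly level, between 140 and 152 CPM.

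Squalene is made and closed into the sterol ring by the next enzymes. Fdft1 had 88.9, 80 and 97.3 CPM in 3xTg LP-10d, 107, 93.9 and 109 CPM in 3xTg vehicle and 84.4, 72 and 81.8 CPM in WT vehicle libraries. Fdft1 (mm10 chr14:63145150-63179578), squalene synthase, was higher in every 3xTg vehicle library than in any WT library, while the treated libraries overlapped with both groups. Its estimated log2 fold change was 0.38 ± 0.10 for 3xTg vehicle against WT (adjusted p = 0.186, edgeR) and -0.22 ± 0.10 for LP-10d against vehicle. Ctsb, the overlapping gene on the other strand, averaged 574 ± 12.8 CPM in 3xTg LP-10d, 573 ± 13.2 CPM in 3xTg vehicle and 555 ± 35.7 CPM in WT vehicle libraries (SD, n = 3 each), a log2 fold change of 0.05 ± 0.08 for 3xTg vehicle against WT. Lss had 49, 47.8 and 43.8 CPM in 3xTg LP-10d, 52.7, 52.6 and 51.4 CPM in 3xTg vehicle and 47.2, 49.1 and 41.4 CPM in WT vehicle libraries. Lss, which closes the ring to lanosterol, was highest in the 3xTg vehicle libraries, without overlap. The differences were small, with log2 fold changes of -0.15 ± 0.09 for LP-10d against vehicle and 0.19 ± 0.09 for 3xTg vehicle against WT (adjusted p = 0.371). Sqle, squalene epoxidase and a rate-limiting step, ran from 53.2 to 58.5 CPM in 3xTg LP-10d, from 55.2 to 66.7 CPM in 3xTg vehicle and from 44.3 to 60.5 CPM in WT vehicle libraries, so its groups overlapped.

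The enzymes that trim the ring to cholesterol divided. Msmo1 had 45.3, 43.9 and 48.9 CPM in 3xTg LP-10d, 56.7, 50.5 and 53.1 CPM in 3xTg vehicle and 49.5, 39.3 and 40.3 CPM in WT vehicle libraries. Msmo1, a methylsterol oxidase, was highest in the 3xTg vehicle libraries, whose lowest value lay 1 to 2 CPM above the highest of each other group. This gave a log2 fold change of -0.21 ± 0.10 for LP-10d against vehicle and 0.31 ± 0.10 for 3xTg vehicle against WT (adjusted p = 0.252). Dhcr7 had 45.1, 43.1 and 42.8 CPM in 3xTg LP-10d, 53.9, 46.2 and 50.7 CPM in 3xTg vehicle and 44.3, 42.8 and 51.5 CPM in WT vehicle libraries. Dhcr7, which reduces the last ring double bond, was lower in the treated libraries than in any 3xTg vehicle library, but the WT libraries overlapped with both. Its log2 fold change was -0.20 ± 0.10 for LP-10d against vehicle and 0.12 ± 0.10 for 3xTg vehicle against WT (adjusted p = 0.567). Sc5d had 57.3, 59.5 and 60.8 CPM in 3xTg LP-10d, 60.1, 61.7 and 59.3 CPM in 3xTg vehicle and 67.9, 58.2 and 75.8 CPM in WT vehicle libraries. Sc5d, a sterol desaturase, lay on the other side of 0 from most enzymes in 3xTg vehicle against WT, at -0.16 ± 0.10 (adjusted p = 0.479), with its highest value in WT vehicle replicate 3.

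For the remaining 6 ring enzymes the groups overlapped in all 3 comparisons. Cyp51, a sterol demethylase, and Ebp, a sterol isomerase, had log2 fold changes of 0.00 ± 0.09 and 0.00 ± 0.13 for 3xTg vehicle against WT. Nsdhl, which removes carbon groups from the ring, and Tm7sf2 had 0.28 ± 0.13 (adjusted p = 0.367) and 0.29 ± 0.16 (adjusted p = 0.429). The Tm7sf2 value rests in part on WT vehicle replicate 3, at 15.9 CPM against 23.6 to 28.6 CPM in the other 8 libraries, and it was 0.10 without that library. The overlapping Vps51 had 0.17 ± 0.16 in the same comparison. Hsd17b7, a sterol ketone reductase, and Lbr had log2 fold changes of 0.11 ± 0.12 and 0.03 ± 0.16. Over the 12 squalene and ring enzymes, 10 were below 0 for LP-10d against vehicle (median -0.12) and 10 above 0 for 3xTg vehicle against WT (median 0.15).

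A score per library, the mean over the 20 enzymes of the log2 CPM minus the gene's mean over the 9 libraries, shows where these differences sit. It was -0.08, -0.03 and 0.02 in 3xTg LP-10d, 0.15, 0.02 and 0.11 in 3xTg vehicle and -0.01, -0.09 and -0.11 in WT vehicle libraries. Fdps, with its low counts, has the same weight in this mean as any other enzyme. The median over the enzymes was -0.04, -0.02 and 0.04, 0.19, 0.01 and 0.13, and -0.01, -0.11 and -0.15 in the same order. The 2 highest scores belonged to 3xTg vehicle replicates 1 and 3, where 16 of 20 enzymes each lay above their mean. 3xTg vehicle replicate 2, the library with the highest sum of striatal and thalamic markers, scored as LP-10d replicate 3 did. In 3xTg vehicle replicate 1 alone, 11 of the 20 enzymes had their highest CPM, and 7 of 20 had their lowest in WT vehicle replicate 3. The SD of the score between replicates, pooled over groups, was 0.06, and it is given without a test because the genes were chosen with results known.

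**Figure D4:**
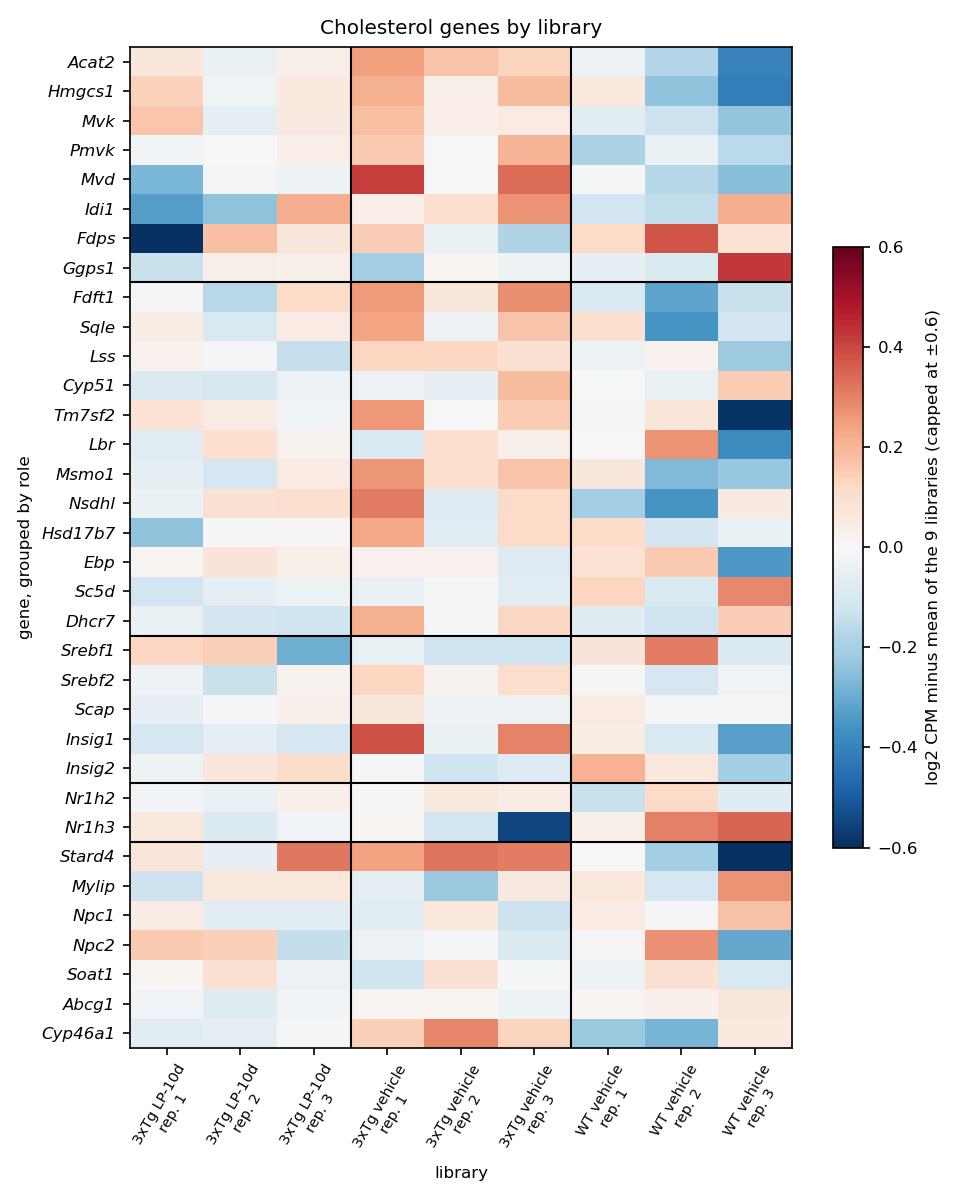
Log2 CPM minus the gene's mean over the 9 libraries (colour, red above and blue below, capped at ±0.6) for the 34 genes (rows, by role) in 9 libraries (columns, 3 per group). Columns of 3xTg vehicle replicates 1 and 3 are red for most enzymes, with 16 of 20 above their mean in each. In the rows of Stard4 and Tm7sf2 the deepest blue is in WT vehicle replicate 3, and in the row of Fdps it is in 3xTg LP-10d replicate 1.

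Of the 5 sensor genes, the negative regulator Insig1 and Srebf2 lay on the same side of 0 as most enzymes. This held for LP-10d against vehicle and for 3xTg vehicle against WT, where Insig1 had the largest differences of the 5. Insig1 had 65.8, 67.8 and 66 CPM in 3xTg LP-10d, 92, 68.5 and 87 CPM in 3xTg vehicle and 73, 66.3 and 56.5 CPM in WT vehicle libraries. Insig1, which retains SCAP in the endoplasmic reticulum and is itself an SREBP target, was high in 3xTg vehicle replicates 1 and 3, and the treated libraries lay within 2 CPM of each other just below 3xTg vehicle replicate 2. Its log2 fold change was -0.31 ± 0.12 for LP-10d against vehicle and 0.34 ± 0.12 for 3xTg vehicle against WT (adjusted p = 0.29), where the groups overlapped. Insig2 had 39.4, 42.2 and 43.4 CPM in 3xTg LP-10d, 39.9, 37.1 and 38.1 CPM in 3xTg vehicle and 46.6, 42 and 34.9 CPM in WT vehicle libraries. Insig2, a relative of Insig1 that also retains SCAP, showed the widest spread in WT and a fold change of 0.12 ± 0.11 for LP-10d against vehicle.

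Srebf2 had 385, 358 and 399 CPM in 3xTg LP-10d, 430, 398 and 423 CPM in 3xTg vehicle and 395, 366 and 387 CPM in WT vehicle libraries. Srebf2 lay above every WT library in the 3xTg vehicle libraries by a narrow margin, with a log2 fold change of 0.12 ± 0.08 (adjusted p = 0.478), and -0.13 ± 0.08 for LP-10d against vehicle, where 1 treated library overlapped. Srebf1 had 130, 132 and 97.5 CPM in 3xTg LP-10d, 116, 110 and 110 CPM in 3xTg vehicle and 126, 148 and 113 CPM in WT vehicle libraries. Srebf1 lay in a narrow band in 3xTg vehicle and ranged widely in both other groups, with a fold change of -0.20 ± 0.13 for 3xTg vehicle against WT (adjusted p = 0.486). Scap had 140, 144 and 148 CPM in 3xTg LP-10d, 152, 142 and 142 CPM in 3xTg vehicle and 150, 144 and 144 CPM in WT vehicle libraries. Scap, the escort of SREBP, was the steadiest of the 5, with fold changes of -0.02 ± 0.07, -0.01 ± 0.07 and -0.02 ± 0.07 in the 3 comparisons in the order given above. SREBP activity depends on cleavage of the protein, which counts of these messages do not measure.

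The liver X receptors, which sense oxysterols and switch on export genes, divided. Nr1h3 had 5.25, 4.74 and 4.94 CPM in 3xTg LP-10d, 5.05, 4.65 and 3.43 CPM in 3xTg vehicle and 5.14, 6.18 and 6.4 CPM in WT vehicle libraries. All 3 WT libraries lay above the 3xTg vehicle libraries, of which replicate 3 was lowest with 63 counts. Its estimated log2 fold change was -0.43 ± 0.17 for 3xTg vehicle against WT (adjusted p = 0.314, edgeR) and 0.18 ± 0.18 for LP-10d against vehicle. Nr1h2 had 0.06 ± 0.08 and -0.05 ± 0.08 in the same comparisons, with overlapping groups.

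Among genes of uptake, transport and turnover, Stard4 and Cyp46a1 stood out. Stard4 had 24.4, 22.4 and 28.9 CPM in 3xTg LP-10d, 27.4, 29 and 28.7 CPM in 3xTg vehicle and 23.2, 20.1 and 11.5 CPM in WT vehicle libraries. Stard4 was lowest by far in WT vehicle replicate 3, while the other 2 WT libraries lay below the 3xTg vehicle libraries, 1 inside and 1 below the treated range. Fitted log2 fold changes were 0.63 ± 0.21 for 3xTg vehicle against WT (adjusted p = 0.259, edgeR), 0.47 ± 0.21 for LP-10d against WT (adjusted p = 0.571) and -0.17 ± 0.21 for LP-10d against vehicle. When WT vehicle replicate 3 was left out, Stard4 had 0.38 for 3xTg vehicle against WT (adjusted p = 0.22, edgeR) and 0.22 for LP-10d against WT (adjusted p = 0.696). Cyp46a1 had 207, 209 and 216 CPM in 3xTg LP-10d, 240, 266 and 238 CPM in 3xTg vehicle and 186, 179 and 226 CPM in WT vehicle libraries. Every 3xTg vehicle library was above every other library, and the treated libraries lay within 9 CPM of one another. The log2 fold change of Cyp46a1 was -0.24 ± 0.10 for LP-10d against vehicle and 0.33 ± 0.10 for 3xTg vehicle against WT (adjusted p = 0.216). Its highest value was in 3xTg vehicle replicate 2, the library with the highest sum of striatal and thalamic markers.

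The other 5 genes of this role lay close together. Mylip, a ubiquitin ligase for lipoprotein receptors, Npc1 and Npc2, which carry cholesterol out of late endosomes, and Soat1, which esterifies it, had log2 fold changes between 0.01 and 0.10 for LP-10d against vehicle and overlapping groups in all 3 comparisons. Abcg1 had -0.03 ± 0.06 and -0.04 ± 0.06 for LP-10d against vehicle and 3xTg vehicle against WT. Its treated libraries, at 96 to 100 CPM, lay below the WT libraries, at 102 to 106 CPM, with a log2 fold change of -0.07 ± 0.06 (adjusted p = 0.696).

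Genes around the pathway were read from 6 fixed lists, and 0 genes of any list passed the adjusted threshold of edgeR in any comparison. Of 15 fatty acid synthesis genes, 2 had an unadjusted p under 0.05 with higher levels in 3xTg vehicle than in WT (13.3%, against 7% of all genes) and 1 with lower levels (6.67%, against 7.08%): Acss2 and Acly, which supply acetyl-CoA, at 0.28 ± 0.09 and 0.22 ± 0.09, and Acacb, an acetyl-CoA carboxylase, at -0.73 ± 0.21 (adjusted p = 0.214, edgeR). Of 13 genes that process SREBP or sense sterol, 2 were higher and 2 lower at that level (15.4% each, against 7% and 7.08% of all genes). The higher ones were Tmem97 and Fbxw7 (0.25 ± 0.10), and the lower ones Erlin2 (-0.24 ± 0.09) and Ubxn4 (-0.27 ± 0.12). Tmem97, a sterol-responsive membrane protein, was at 10 ± 0.63 CPM in 3xTg LP-10d, 12.2 ± 2.09 CPM in 3xTg vehicle and 8.67 ± 0.424 CPM in WT vehicle libraries (SD, n = 3 each), a log2 fold change of 0.50 ± 0.14 for 3xTg vehicle against WT (adjusted p = 0.206, edgeR) and of -0.29 ± 0.14 for LP-10d against vehicle.

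Of 16 efflux and lipoprotein genes, 12 had negative fold changes for 3xTg vehicle against WT (75%, against 49.8% of all genes, median -0.11). At an unadjusted p under 0.05 in edgeR, 3 were lower (18.8%, against 7.08% of all genes) and 1 higher (6.25%, against 7%). Apoe, which encodes the main apolipoprotein of the brain, averaged 1708 ± 114 CPM in 3xTg LP-10d, 1569 ± 25.7 CPM in 3xTg vehicle and 1959 ± 153 CPM in WT vehicle libraries (SD, n = 3 each). Its log2 fold change was -0.32 ± 0.10 for 3xTg vehicle against WT (adjusted p = 0.22, edgeR). Abca5, a lipid transporter, stood at 0.37 ± 0.11 in that comparison. Of 17 genes of endosomal and contact-site transport, 2 were higher (11.8%, against 7% of all genes) and 1 lower (5.88%, against 7.08%) at that level. Osbpl1a, a sterol-binding protein of late endosomes, had the smallest p-value, at 142 ± 11.7 CPM in 3xTg vehicle and 103 ± 5.14 CPM in WT vehicle libraries (SD, n = 3 each), at 0.46 ± 0.09 (adjusted p = 0.104, edgeR). In the 14 isoprenoid genes 2 were higher at an unadjusted p under 0.05, Rabggta and Pdss1 (14.3%, against 7% of all genes), and in the 7 tested oxysterol genes none reached it in any comparison. For LP-10d against vehicle, 0 genes of the 6 lists had an unadjusted p under 0.05, against 2.9% of all genes.

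Cell-type markers differed in level as well, and their values are set beside these results. For LP-10d against vehicle, 12 of 12 oligodendrocyte markers had positive fold changes (median 0.16). Their summed CPM was 6256 to 8390 in 3xTg LP-10d and 5360 to 6811 in 3xTg vehicle libraries, with the highest sum in LP-10d replicate 1. LP-10d replicates 2 and 3 summed to 6256 and 6289 CPM, below 3xTg vehicle replicates 1 and 2 (6811 and 6439 CPM). Of the 12 markers, 12, 0 and 1 lay above their mean over the 9 libraries in LP-10d replicates 1, 2 and 3. For 3xTg vehicle against WT, 10 of 12 were negative (median -0.28), against 7531 to 8050 CPM in WT vehicle libraries. Oligodendrocytes make much of the cholesterol of myelin. Microglial markers were lower in treated than in vehicle libraries for 9 of 9 genes (median -0.10) and higher in 3xTg vehicle than in WT for 8 of 9 (median 0.12). Their sums were 390 to 426 CPM, 422 to 467 CPM and 344 to 451 CPM in 3xTg LP-10d, 3xTg vehicle and WT vehicle libraries. The lowest WT sum was in WT vehicle replicate 3. WT vehicle replicates 1 and 2, at 451 and 436 CPM, lay inside the 3xTg vehicle range. Astrocyte markers had medians of 0.07 and -0.04, and general neuronal markers of -0.04 and -0.03. Striatal and thalamic markers had medians of -1.91 and 1.60 and choroid plexus markers of 1.84 and -2.66 in these comparisons. For 3xTg vehicle against WT, 7 of the 10 striatal and thalamic markers were above 0 and 3 below it. Hippocampal neuron markers had medians of 0.22 and -0.50, oligodendrocyte precursor markers of 0.09 and -0.15, endothelial markers of 0.04 and -0.05 and blood markers of -0.61 and 1.14. The blood marker Slc4a1 was at 0 in 1 library, and no other marker was at 0 in any library. The part of cell content in the differences was not tested. Leaving out libraries does not test it, because marker levels also differed among the libraries that were kept.

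**Figure D5:**
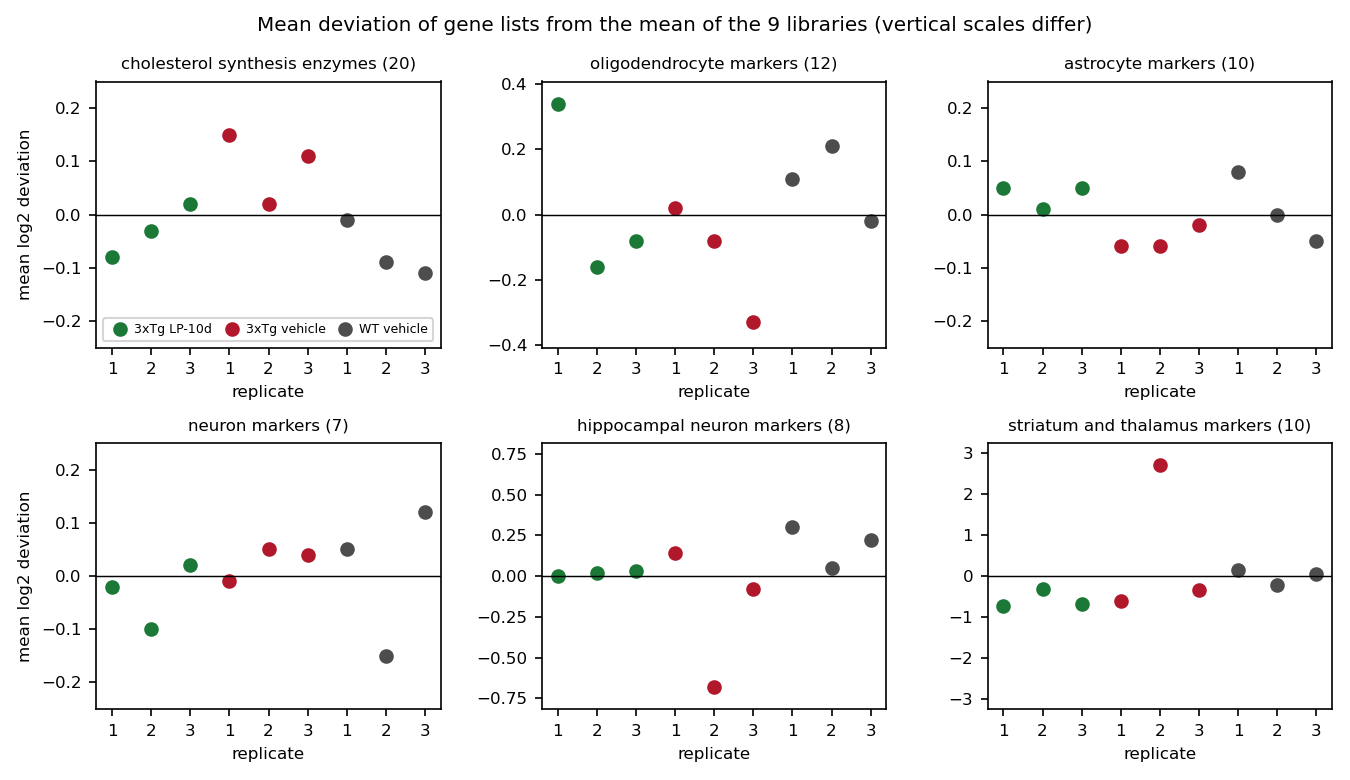
Mean log2 deviation from the mean of the 9 libraries (vertical, scales differ between panels) of the 20 synthesis enzymes and of 5 marker lists, with 1 point per library (horizontal, 3 per group). The enzymes are highest in 3xTg vehicle replicates 1 and 3 (0.15 and 0.11), oligodendrocyte markers are lowest in 3xTg vehicle replicate 3 (-0.33), and striatum and thalamus markers stand apart in 3xTg vehicle replicate 2 (2.71).

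Leaving out both libraries that stand apart changed the size of several log2 fold changes, and none of the 34 genes passed edgeR's adjusted threshold. For LP-10d against vehicle, Mvd had -0.47, Insig1 -0.42, Fdft1 -0.28 and Cyp46a1 -0.18. The values of Pmvk (-0.17), Sqle (-0.20), Nsdhl (-0.16), Tm7sf2 (-0.16), Hmgcs1 (-0.14) and Mvk (-0.05) lay farther from 0 by over 1.5 times. On the positive side, Ggps1 (0.10), Npc1 (0.07), Soat1 (0.09) and Lbr (0.06) did so as well. For 3xTg vehicle against WT, Mvd and Fdft1 had 0.46 each, Cyp46a1 0.38 and Insig1 0.36. In that comparison Nsdhl (0.49), Dhcr7 (0.26), Idi1 (0.29), Hsd17b7 (0.17), Insig2 (-0.19) and Npc2 (-0.22) lay farther from 0 by over 1.5 times. Lss (0.11), Tm7sf2 (0.17), Stard4 (0.37), Sc5d (-0.08) and Ggps1 (-0.06) lay closer to it. Cyp51, Ebp and Soat1, at 0.00 with all libraries, had 0.10, -0.16 and -0.10, and Lbr went from 0.03 to -0.18. For LP-10d against WT, Acat2 (0.12), Hmgcs1 (0.14), Stard4 (0.22), Tm7sf2 (0.01) and Sc5d (-0.09) lay closer to 0 by over 1.5 times. Nsdhl (0.33), Cyp46a1 (0.21) and Srebf1 (-0.19) lay farther from it.

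Single libraries decided how many genes reached an unadjusted p under 0.05. Without 3xTg vehicle replicate 2 and WT vehicle replicate 3, 7 of the 34 genes were lower at that level for LP-10d against vehicle (20.6%, against 2.94% of all genes) and 12 higher for 3xTg vehicle against WT (against 6.65%), with medians of -0.14 and 0.13. Without 3xTg vehicle replicate 1, the library with the highest enzyme score, the counts were 0 (against 2.81% of all genes) and 4 (against 6.15%), with medians of -0.04 and 0.08. For LP-10d against vehicle the count was 0 also without LP-10d replicate 1 (against 1.13%), 1 without LP-10d replicate 2 or 3xTg vehicle replicate 3 (against 1.22% and 1.83%) and 3 without LP-10d replicate 3 (against 1.88%). It was 4 without 3xTg vehicle replicate 2, WT vehicle replicate 1 or WT vehicle replicate 2 (against 1.41%, 1.97% and 2.02%), and 7 when WT vehicle replicate 3 was left out (against 3.03%). For 3xTg vehicle against WT it was 6 without 3xTg vehicle replicate 3 (against 5.06%) and between 9 and 11 without any 1 of the other libraries, where all genes gave 5.36% to 8.98%. For LP-10d against WT, 4 were higher when WT vehicle replicate 1 was left out (against 6.03%), 2 when replicate 3 was (against 3.98%) and 1 without LP-10d replicate 2 (against 3.16%), and 1 was lower without WT vehicle replicate 2 (against 7.91%). The medians for LP-10d against vehicle and for 3xTg vehicle against WT kept their sign in all of these fits.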

How the data were processed

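Libraries were prepared by an MGI kit out of 300 ng of column-purified total RNA, per the labels' protocols. The authors deposited raw gene counts for 55471 genes and FPKM values for the 33175 genes with a count. Per the submitters' processing notes the genome was mm10, while aligner, counter and strand use were not given in the sources used here. Count and FPKM gave the same ratios between libraries up to total count. Total counts per library ran from 16582086 to 19170969, and no replicates matched within sampling noise.

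The counts were fitted with edgeR 4.0.16 in R 4.3.3: filterByExpr (17396 genes), TMM scaling, group means fitted once over 9 libraries, quasi-likelihood testing, and Benjamini-Hochberg adjustment over all genes at 0.05. The common biological coefficient of variation was 0.157. Methods were tested on simulated data. CPM values were computed from the deposited counts, and genes were compared in level by the authors' FPKM. The standard error of the log2 fold changes of these genes had a median of 0.11 in each comparison, which limits what a null result can say.

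The 34 genes and the other 16 lists were chosen with earlier results of these data known. Values in every library are given for genes past the threshold, for the 6 smallest p-values per comparison and for Srebf1, Srebf2, Scap, Insig1 and Insig2. Lss and Nr1h3 were added after their values were seen. Of the lists, 1 gene of the oxysterol list was not found by name. Some genes of the pathway were not analysed here. The fit was repeated with DESeq2 1.42.0, with voom and trend (limma 3.58.1), with other scalings and filters, on 6 libraries, with a replicate block, and without each library. Similar transcripts were found with blastn 2.17.0 in GENCODE M21 (at least 400 bases and 90% identity).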

Additional observations from a re-analysis of the deposited data

How the results depend on the processing

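Of the 34 genes, none passed the adjusted threshold in any comparison under any edgeR or limma alternative. DESeq2 called 1, Fdft1 in 3xTg vehicle against WT (log2 fold change 0.38, adjusted p = 0.0482). The number of all genes called moved more. For LP-10d against vehicle it was 0, and it became 1 with DESeq2, 5 with log2(FPKM + 0.1), 1 with log2(FPKM + 1) and 8 with log2(FPKM + 0.1) and no filter. For 3xTg vehicle against WT it was 1, and it became 352 with DESeq2, 3 with no filter on low counts, 14, 5 and 17 with the same FPKM settings in that order, and 0 to 11 when each library was left out. For LP-10d against WT it was 0, and it became 46 with DESeq2, 3, 1 and 7 with the FPKM settings, and 0 to 2 when each library was left out. The cause was not tested. The median of the 34 genes for LP-10d against vehicle, -0.09, ran from -0.15 to -0.04 over left-out libraries. On the log2(FPKM + 0.1) scale 26 of 34 genes lay above 0 for 3xTg vehicle against WT, where edgeR had 21, and the median of all genes was 0.05. Fold changes near 0 changed sign under 1 alternative or more for 6 of 34 genes for LP-10d against vehicle, 4 for 3xTg vehicle against WT and 16 for LP-10d against WT. Over left-out libraries the range spanned 0 for LP-10d against vehicle in Fdps (-0.26 to 0.14), Npc1 (-0.03 to 0.07), Mvk (-0.09 to 0.02), Nsdhl (-0.17 to 0.03), Scap (-0.03 to 0.02) and Soat1 (-0.01 to 0.09), for 3xTg vehicle against WT in Lbr (-0.13 to 0.19), Scap (-0.04 to 0.01) and Npc2 (-0.20 to 0.10), and for LP-10d against WT in Idi1 (-0.28 to 0.03), Hsd17b7 (-0.11 to 0.01), Npc2 (-0.09 to 0.20), Mvd (-0.01 to 0.12), Lbr (-0.12 to 0.20), Srebf2 (-0.04 to 0.03), Srebf1 (-0.19 to 0.02), Insig2 (-0.09 to 0.12), Nr1h2 (-0.03 to 0.09), Ggps1 (-0.23 to 0.05), Lss (-0.04 to 0.08), Ebp (-0.08 to 0.15), Insig1 (-0.07 to 0.12), Mylip (-0.17 to 0.02) and Soat1 (-0.01 to 0.08). Without both libraries that stand apart, the sign changed for 3xTg vehicle against WT in Lbr (-0.18) and Mylip (0.02), and for LP-10d against WT in Mvd (-0.01), Idi1 (0.03), Ggps1 (0.05), Lss (-0.04), Lbr (-0.12), Ebp (-0.08), Insig1 (-0.07), Insig2 (-0.09), Nr1h2 (-0.01), Mylip (0.02), Npc2 (-0.09) and Soat1 (-0.01). On the log2(FPKM + 0.1), log2(FPKM + 1) and unfiltered FPKM scales Scap turned to 0.04, 0.03 and 0.04 for 3xTg vehicle against WT and to 0.02 on each for LP-10d against WT, where Srebf2 turned to 0.04 on each. Genes at 0.00 have no sign to change and are not in these counts, such as Cyp51 and Ebp for 3xTg vehicle against WT, which ran from -0.08 to 0.10 and from -0.16 to 0.09 over all alternatives. The score of WT vehicle replicate 3 was -0.19 from FPKM, against -0.11.

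Replicate numbers did not pair the samples throughout: correlations of deviations between libraries of the same number ran from -0.17 to 0.379, and not all exceeded 0.1. Between 3xTg LP-10d and 3xTg vehicle libraries they were 0.193, 0.0923 and 0.379 for numbers 1, 2 and 3. The check cannot settle pairing in that comparison. With a replicate block, 0 of the 34 genes passed, 4 were lower for LP-10d against vehicle (against 2.01% of all genes) and 12 higher for 3xTg vehicle against WT (against 6.76%) at an unadjusted p under 0.05. A fit of only the 6 libraries compared gave 9 lower for LP-10d against vehicle, against 3.52% of all genes. With 3 libraries a group and at most 26 counts for Fdps, small differences could not be detected.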
